A study of Arabidopsis thaliana with 9 samples.

Results

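The 6 AP2-like genes that carry a binding site for the microRNA miR172, *AP2*, *TOE1*, *TOE2*, *TOE3*, *SMZ* and *SNZ*, were followed in seedlings of *thp1-5*, *sac3bc* and Col. They were chosen by locus identifier, and all 6 had a row in each count table (6 of 37361 loci) and passed the filter on low counts that left 22400 genes. The groups were the *Arabidopsis thaliana* genotypes *thp1-5*, *sac3bc* and the wild type Col, with 3 libraries each. *THP1*, *SAC3B* and *SAC3C* encode parts of TREX-2, a complex at the nuclear pore that links transcription with mRNA export, and the title of the series ties it to microRNA biogenesis. Every group was 14 days old and untreated, and had been kept in days of 16 h light at 22 °C on half-strength MS medium with 1% sucrose. Polyadenylated RNA was read as single reads of 150 nt, and total counts per library were 12814326 to 17923310. No label says whether the 3 libraries of a genotype came from separate plants or cultures. A p-value thus sets a difference only against the spread of these libraries, and that spread may be technical.

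The proteins of this family bind DNA through AP2 domains. They act mostly as repressors: *TOE1*, *TOE2*, *TOE3*, *SMZ* and *SNZ* delay flowering, partly by keeping *FT* and *SOC1* low, and *AP2* also specifies sepals and petals. miR172 rises as the plant ages and lowers the output of these genes through a single site in each mRNA, both by blocking translation and by cleaving the transcript. A change in miR172 activity can therefore alter AP2-like protein more than AP2-like mRNA, and mRNA alone was measured here.

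The reference annotation holds 5 *MIR172* genes on chromosomes 2, 3 and 5, and the mature strands that target the family come in 3 forms. They are printed 5′ to 3′ with the seed (bases 2 to 8) in capitals, as the strand that the sites below are matched to.
miR172a and miR172b-3p: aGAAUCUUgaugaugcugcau
miR172c and miR172d-3p: aGAAUCUUgaugaugcugcag
miR172e-3p: gGAAUCUUgaugaugcugcau
The 3 forms share 1 seed and differ in their first or last base. In TAIR10.1 they lie at chr2:11942918-11942938 (miR172a, minus strand), chr5:1188211-1188231 (miR172b-3p, minus), chr3:3599791-3599811 (miR172c, minus), chr3:20587991-20588011 (miR172d-3p, plus) and chr5:23988566-23988586 (miR172e-3p, plus), as annotated by RefSeq. Counts of the *MIR172* loci were not analysed here.

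The site in each mRNA was taken as the stretch closest to the perfect complement of miR172a in the TAIR10.1 genome and its RefSeq annotation. Sites are printed 5′ to 3′ on the mRNA strand as DNA, because the site is what joins these genes. Capitals mark bases that differ from that complement.
*AP2* (chr4:17403019-17403039, plus strand): CtgcagcatcatcaGgattct
*TOE1* (chr2:12226233-12226253, minus strand): CAgcagcatcatcaGgattct
*TOE2* (chr5:24210889-24210909, plus strand): atgcagcatcatcaGgattct
*TOE3* (chr5:26802175-26802195, minus strand): TGgcagcatcatcaGgattct
*SMZ* (chr3:20373774-20373794, minus strand): TtgcagcatcatcaGgattcC
*SNZ* (chr2:16389066-16389086, minus strand): TtgTagcatcatcaGgattcC

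All 6 sites carry the substitution A15G (position counted from 1 at the 5′ end of the site), which leaves a G:U pair with the microRNA. *TOE2* differed from the complement at 1 base, *AP2* at 2, *TOE1*, *TOE3* and *SMZ* at 3 and *SNZ* at 4. The first base of the *AP2* and *TOE1* sites (A1C) pairs with the last base of miR172c, so those sites differ from its complement at 1 and 2 bases. The last base of the *SMZ* and *SNZ* sites (T21C) pairs with the first base of miR172e, whose complement they differ from at 2 and 3 bases. Of 31342 genes with an annotated mRNA, 6 (0.0191%) held a stretch within 3 mismatches of the miR172a complement, and 5 of these were members. The other was AT5G12900. Within 4 mismatches there were 39 genes (0.124%), all 6 members among them. Such a match is a description of the sequence and not evidence of cleavage.

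The site lies near the end of the coding sequence in at least 1 mRNA of each gene, as the map of the mRNAs shows. The distance from the site to the end of the coding sequence was 56 bases in *TOE3*, *SMZ* and *SNZ*, 65 in *TOE1*, 101 in *AP2* and 158 in *TOE2*. The annotation also lists mRNAs that end coding earlier or lack the site. It lies in the 3′ untranslated part of 3 of 6 *TOE1* mRNAs, 3 of 6 *TOE2* mRNAs and 1 of 2 *SNZ* mRNAs. It is in only 1 of 4 *TOE3* mRNAs and 1 of 2 *SMZ* mRNAs, and counts per gene do not separate mRNAs with the site from those without it.

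**Figure D1:**
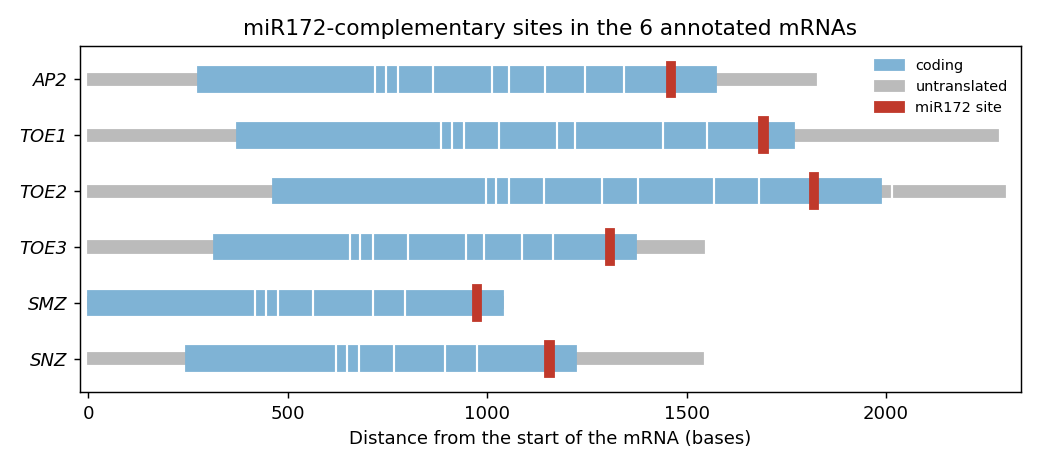
Annotated mRNAs of the 6 genes, drawn to scale from their first base (x axis, bases), with the coding part in blue, untranslated parts in grey, exon borders as white lines and the miR172-complementary site in red. For each gene the longest mRNA with the site in its coding part is drawn; the site is 56 to 158 bases from the end of the coding sequence, in the last exon of every mRNA drawn except that of *TOE2* (exon 9 of 10).

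The genes are far enough apart in sequence for reads to be told apart. Their coding sequences were 64.8 to 76.7% identical over the aligned bases, with *SMZ* and *SNZ* the closest pair, and no stretch of 31 bases was shared by the mRNAs drawn. Exons of *AP2* (AT4G36920, chr4:17400610-17403469), *TOE1* (AT2G28550, chr2:12225656-12228624), *TOE2* (AT5G60120, chr5:24207689-24211743) and *SNZ* (AT2G39250, chr2:16388691-16391176) overlapped no other locus. *SMZ* (AT3G54990, chr3:20373718-20376522) shared 30.6% of its exonic bases with AT3G54980 on the other strand, and *TOE3* (AT5G67180, chr5:26801949-26804271) shared 6.74% with AT5G67170 on the other strand. Nothing in the labels or tables says whether counting used strand, so some reads at *SMZ* and *TOE3* may belong to these neighbours.

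As a check of the labels, *THP1* stood at 11.1 to 12.7 CPM (read counts scaled to library size with TMM factors) in the libraries labelled *thp1-5*, against 11.6 to 14.1 CPM in Col, so its level does not mark that genotype. In the libraries labelled *sac3bc*, *SAC3B* stood at 23.1 to 27.7 CPM and *SAC3C* at 7.56 to 7.96 CPM, against 46.7 to 47.2 and 14.3 to 15.8 CPM in Col. All comparisons go by the labels. The label *sac3bc* also went with less *THP1* (5.00 to 6.89 CPM, log2 fold change −1.03, adjusted p = 2.92e-14, edgeR), and the label *thp1-5* with less *SAC3B* (30.8 to 36.4 CPM, adjusted p = 1.08e-12, edgeR). Seedling markers were present in all groups, and counts of them are to be read against all genes tested. Of those, 32.1% were called higher and 31.8% lower in *thp1-5*, and 35.0% and 33.0% in *sac3bc*. The 5 shoot genes summed to 28633 to 29961 CPM in *thp1-5*, 25018 to 25985 in *sac3bc* and 46058 to 47348 in Col. All 5 were called lower in both mutants with TMM scaling. In *thp1-5* their log2 fold changes ran from −0.38 (*RBCS3B*) and −0.40 (*LHCB2.1*) to −0.88 (*CAB1*). Library sizes set by total counts moved the median gene of *thp1-5* to 0.30, and markers were not counted with that scaling. Of 6 root markers, 5 were called higher in each mutant and *PYK10* lower. Their mean sums were 1859 CPM in *thp1-5* and 1855 in *sac3bc*, against 3767 in Col. Most of that was *PYK10*, at 1711, 1672 and 3670 CPM in the same order. The call of *PHT1;1* in *thp1-5* was weak (0.15, adjusted p = 0.0372, edgeR), and its libraries overlapped those of Col. Of 5 seed markers, 4 were called lower in *thp1-5* and 5 in *sac3bc*, with mean sums of 20.2 CPM in *thp1-5* and 2.51 CPM in *sac3bc*, against 76.1 CPM in Col. The 8 flower organ markers summed to 6.77 to 9.08 CPM in *thp1-5*, 9.56 to 10.4 in *sac3bc* and 10.1 to 12.9 in Col. Only 4 of the 8 passed the filter. Of those 4, 3 (*PI*, *SEP1* and *SEP3*) were called lower in *thp1-5* and 1 (*SEP1*) in *sac3bc*. The *thp1-5* libraries overlapped those of Col for *PI* and *SEP3*, and *SEP1* shares 35.8% of its exonic bases with other loci. *AP3*, which marks petals and stamens, had a summed count of 1 in *thp1-5*, 14 in *sac3bc* and 5 in Col, and no flower marker was at 0 in every library of a group. The part of these shifts in the results below was not tested, and in whole seedlings fewer cells of a type and less RNA per cell cannot be told apart.

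Levels of the 6 genes can be ranked only per length, in TPM (counts divided by the gene length in the tables and scaled to a common total). *TOE1* was the most abundant in every group, at 65.7 ± 0.456 TPM in *thp1-5*, 67.7 ± 0.763 in *sac3bc* and 45.4 ± 1.71 in Col (SD, n = 3 each). In *thp1-5* the order went on with *TOE2* (25.5 ± 0.383 TPM), *SNZ* (15.8 ± 1.49), *AP2* (11.8 ± 0.899), *SMZ* (9.37 ± 0.487) and *TOE3* (9.22 ± 0.956), and the ranges of *SMZ* and *TOE3* overlapped. In *sac3bc* it was *TOE2* (23.3 ± 1.196 TPM), *AP2* (14.5 ± 0.791), *SNZ* (13.5 ± 1.36), *SMZ* (7.61 ± 1.39) and *TOE3* (7.55 ± 0.0737), with overlapping ranges for *AP2* and *SNZ* and for *SMZ* and *TOE3*. In Col *SNZ* came second (18.5 ± 0.279 TPM), then *TOE2* (16.4 ± 1.77), *AP2* (11.1 ± 0.843), *TOE3* (5.70 ± 0.512) and *SMZ* (5.13 ± 0.873). There the ranges of *SNZ* and *TOE2* overlapped, as did those of *TOE3* and *SMZ*. By mean TPM *SNZ* thus stood below *TOE2* in both mutants and above it in Col, where the overlap leaves the order unsettled. The order also rests on the lengths used, which join all exons of a gene. These were 2981 bases for *TOE2* and 1674 for *SNZ*, against 2297 and 1542 in the mRNAs drawn.

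The shares of the pool do not depend on how libraries were scaled. *SNZ* made up 11.5 ± 0.862% of the summed TPM of the 6 genes in *thp1-5* and 10.045 ± 1.01% in *sac3bc*, against 18.1 ± 0.494% in Col (SD, n = 3 each). *TOE1* held 47.9 ± 0.796% in *thp1-5* and 50.5 ± 1.00% in *sac3bc*, against 44.5 ± 0.192% in Col. The share of *AP2* was 8.60 ± 0.478% in *thp1-5*, 10.8 ± 0.446% in *sac3bc* and 10.8 ± 1.06% in Col. These shares are given as a description, with no test.

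**Figure D2:**
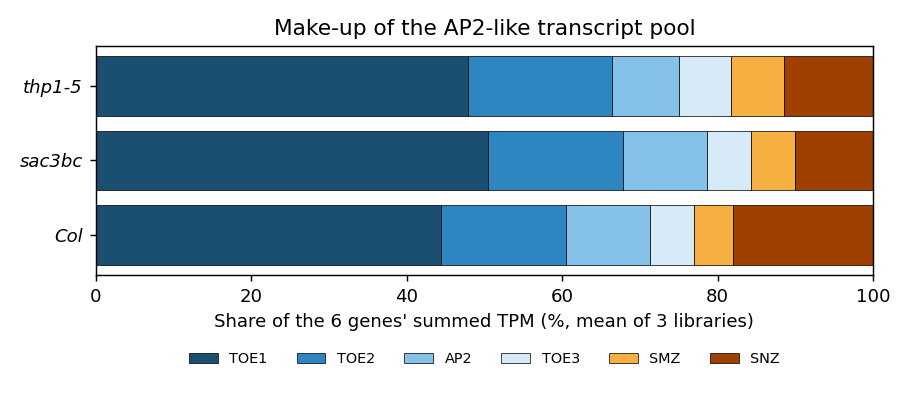
Share of each gene in the summed TPM of the 6 AP2-like genes (x axis, %), as the mean of 3 libraries in *thp1-5*, *sac3bc* and Col from top to bottom. The *SNZ* segment is 11.5% wide in *thp1-5* and 10.045% in *sac3bc*, against 18.1% in Col, and *TOE1* takes the largest share in each group.

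The first comparison asked whether transcripts of the family differ in *thp1-5* seedlings from those of Col. All 6 genes were called at an adjusted p under 0.05 (edgeR): *TOE1*, *TOE2*, *TOE3* and *SMZ* rose, while *SNZ* and *AP2* fell. Of all genes tested, 63.8% were called in this comparison, 32.1% higher and 31.8% lower, so calls were common everywhere. Overlap between groups is given below for each member as a description only. The share of all genes without overlap is not given for any comparison, so it does not set the members apart. With TMM scaling, changes in the family were under 1.5-fold in either direction. With library sizes set by total counts, *SMZ* (log2 fold change 0.80) and *TOE3* (0.63) went beyond that. The median log2 fold change of the 6 was 0.23, beside 0.01 for all genes tested.

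*SNZ*, which represses flowering together with its close paralog *SMZ*, fell furthest. It stood at 15.2, 16.7 and 18.2 CPM in *thp1-5*, against 24.6, 25.2 and 25.2 CPM in Col. All *thp1-5* libraries were below all Col libraries, at a log2 fold change of −0.58 ± 0.08 (SE, adjusted p = 4.21e-10, edgeR). *SMZ* moved the other way, although few reads covered it (46 to 114 counts in a *thp1-5* or Col library). It stood at 6.69, 6.44 and 5.98 CPM in *thp1-5*, against 4.06, 5.30 and 3.98 CPM in Col, without overlap and with a log2 fold change of 0.51 ± 0.16 (SE, adjusted p = 0.00333, edgeR). AT3G54980, the neighbour that shares bases with *SMZ*, also rose in *thp1-5*, by 0.40 ± 0.09 (adjusted p = 8.42e-05, edgeR), and its part in the *SMZ* value was not tested.

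Of the TOE genes, *TOE1* had the tightest values. It stood at 111, 109 and 110 CPM in *thp1-5*, against 94.7, 101 and 95 CPM in Col, without overlap and with a log2 fold change of 0.18 ± 0.04 (SE, adjusted p = 1.1e-05, edgeR). *TOE2*, which acts with *TOE1* to delay flowering, stood at 49.3, 47.6 and 47.5 CPM in *thp1-5*, against 36.8, 44.3 and 37.5 CPM in Col. The groups did not overlap, and the log2 fold change was 0.28 ± 0.06 (SE, adjusted p = 9.96e-06, edgeR). *TOE3*, which also has a part in floral patterning, stood at 9.30, 10.3 and 11.3 CPM in *thp1-5*, against 8.47, 7.29 and 8.70 CPM in Col. Its log2 fold change of 0.35 ± 0.12 (SE, adjusted p = 0.00881, edgeR) was no longer called without Col replicate 2 (adjusted p = 0.0788) or *thp1-5* replicate 3 (adjusted p = 0.0629). The 9 fits that each left out 1 library gave 0.00453 to 0.0788. AT5G67170, which overlaps it, stood at −0.02 ± 0.13.

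*AP2*, the sepal and petal identity gene, was lower. It stood at 14.2, 14.5 and 16.2 CPM in *thp1-5*, against 19.4, 16.9 and 17.3 CPM in Col, without overlap, and its log2 fold change was −0.25 ± 0.09 (SE, adjusted p = 0.0109, edgeR). That call was lost without Col replicate 1 (adjusted p = 0.0883) or *thp1-5* replicate 2 (adjusted p = 0.0511). The 9 fits that each left out 1 library gave 0.00543 to 0.0883. It was also lost with library sizes set by total counts, where *AP2* stood at 0.04. That scaling moved the median of all genes to 0.30 in *thp1-5*, so *AP2* was still below the median gene there, as was *SNZ* at −0.29. *TOE1* (0.47), *TOE2* (0.57), *TOE3* (0.63) and *SMZ* (0.80) stood above it.

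**Figure D3:**
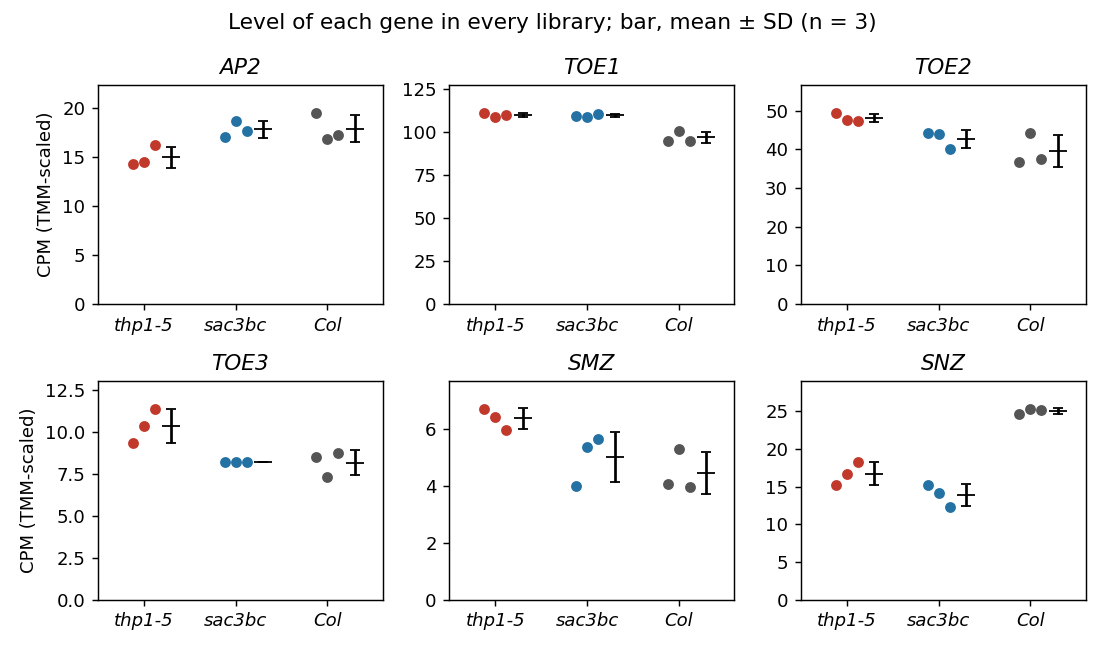
CPM scaled by TMM (y axis, from 0) of each gene in every library of *thp1-5*, *sac3bc* and Col (x axis); points are libraries and the black bars are mean ± SD (n = 3). *SNZ* lies at 12.3 to 18.2 CPM in the mutant libraries, against 24.6 to 25.2 in Col, while *TOE1* lies at 109 to 111 in the mutants, against 94.7 to 101 in Col.

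The second comparison asked the same of *sac3bc*. Only *SNZ* and *TOE1* were called there among the 6 genes (edgeR), 1 lower and 1 higher, in a comparison that called 68.0% of all genes tested (35.0% higher and 33.0% lower). The median log2 fold change of the 6 was 0.06, beside 0.03 for all genes. Both mutants were set against the same Col libraries, so the values against Col are not independent of each other.

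*SNZ* stood at 15.2, 14.1 and 12.3 CPM in *sac3bc*, against 24.6, 25.2 and 25.2 CPM in Col. With TMM scaling this was the largest change of a member in the 3 comparisons, with a log2 fold change of −0.86 ± 0.08 (SE, adjusted p = 3.71e-18, edgeR). With total counts the largest was that of *SMZ* in *thp1-5*. *TOE1* stood at 109, 109 and 110 CPM in *sac3bc*, against 94.7, 101 and 95 CPM in Col, with a log2 fold change of 0.18 ± 0.04 (SE, adjusted p = 7.6e-06, edgeR). No *sac3bc* library overlapped a Col library for either gene.

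The other 4 genes overlapped between *sac3bc* and Col. *AP2* stood at 17.0, 18.7 and 17.6 CPM in *sac3bc*, against 19.4, 16.9 and 17.3 CPM in Col, a log2 fold change of 0.00 with an approximate 95% interval of −0.16 to 0.17 (adjusted p = 0.988, edgeR). *TOE3* stood at 8.19, 8.21 and 8.21 CPM in *sac3bc*, against 8.47, 7.29 and 8.70 CPM in Col, with an interval of −0.23 to 0.25 (adjusted p = 0.936, edgeR). Values of both genes thus centred on those of Col. The interval of *TOE3* holds a change as large as that of *TOE1* in either direction, and that of *AP2* ends just short of it.

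*TOE2* stood at 44.4, 43.9 and 40.1 CPM in *sac3bc*, against 36.8, 44.3 and 37.5 CPM in Col, a log2 fold change of 0.11 ± 0.06 that was not called (SE, adjusted p = 0.0836, edgeR). Without Col replicate 2, its highest Col library, it was called at 0.20 (adjusted p = 0.00423), and without *sac3bc* replicate 3 at 0.15 (adjusted p = 0.0226). *SMZ* stood at 4.01, 5.37 and 5.66 CPM in *sac3bc*, against 4.06, 5.30 and 3.98 CPM in Col, at 0.17 ± 0.16 (SE, adjusted p = 0.339, edgeR). Its overlapping neighbour AT3G54980 rose in *sac3bc* as well, by 0.31 ± 0.09 (adjusted p = 0.00167, edgeR), and its part in the *SMZ* value was not tested. With total counts the median of all genes moved to 0.37 in *sac3bc* and all 6 members were called, 5 higher and *SNZ* lower. Of these, *AP2* (0.34) and *TOE3* (0.35) stood slightly below that median, *TOE2* (0.44), *SMZ* (0.51) and *TOE1* (0.51) above it and *SNZ* at −0.52.

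**Figure D4:**
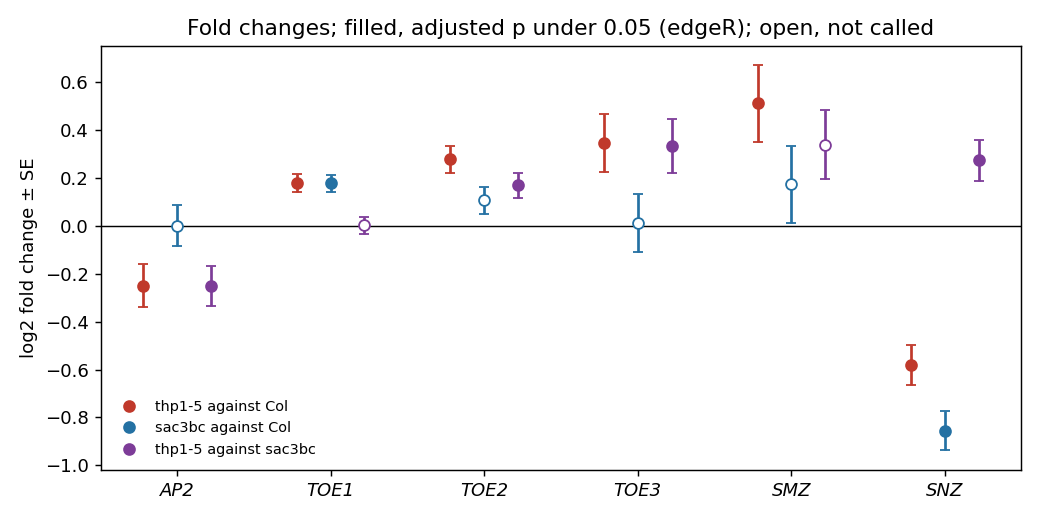
Log2 fold change ± SE (y axis) of each gene (x axis) for *thp1-5* against Col (red), *sac3bc* against Col (blue) and *thp1-5* against *sac3bc* (purple); filled points had an adjusted p under 0.05 (edgeR) and open points did not. *SNZ* is below 0 in both mutants against Col and *TOE1* above 0 in both, at 0.18 each.

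Whether the mutants differed from each other was tested directly, as *thp1-5* against *sac3bc*. In this comparison 23.0% of all genes tested were called (12.1% higher and 10.9% lower in *thp1-5*), and 4 of the 6 members were: *TOE2*, *TOE3* and *SNZ* higher and *AP2* lower in *thp1-5*. *SNZ* stood at 15.2, 16.7 and 18.2 CPM in *thp1-5*, against 15.2, 14.1 and 12.3 CPM in *sac3bc*, a log2 fold change of 0.27 ± 0.09 (SE, adjusted p = 0.011, edgeR). The lowest *thp1-5* library was barely above the highest *sac3bc* library. *AP2* stood at −0.25 ± 0.08 (adjusted p = 0.0179), *TOE2* at 0.17 ± 0.05 (adjusted p = 0.0101) and *TOE3* at 0.33 ± 0.11 (adjusted p = 0.0184) by the same test. The CPM ranges of the mutants did not overlap for any of them. For none of the comparisons is the share of all genes without overlap given here, so a lack of overlap does not set the members apart.

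These differences were small and depended on single libraries and on the tool. *AP2* was not called without *thp1-5* replicate 1, *thp1-5* replicate 2 or *sac3bc* replicate 2 (adjusted p = 0.0794, 0.0945 and 0.0953). *TOE2* was not called without *thp1-5* replicate 1 or *sac3bc* replicate 3 (adjusted p = 0.0603 and 0.131), nor with total counts (adjusted p = 0.0819). *TOE3* was not called without *thp1-5* replicate 2 or 3 (adjusted p = 0.0547 and 0.133). *SNZ* was not called without *thp1-5* replicate 3 or *sac3bc* replicate 3 (adjusted p = 0.115 and 0.154). DESeq2 called *SNZ* alone among the 6.

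The remaining pair did not pass. *SMZ* stood at 6.69, 6.44 and 5.98 CPM in *thp1-5*, against 4.01, 5.37 and 5.66 CPM in *sac3bc*, at 0.34 ± 0.14 (SE, adjusted p = 0.078, edgeR) although the groups did not overlap, and was called without *sac3bc* replicate 3 (adjusted p = 0.0471). For *TOE1* the mutants were nearly level, at 0.00 with an approximate 95% interval of −0.07 to 0.07 (adjusted p = 0.978, edgeR), which leaves out a difference as large as its rise over Col.

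Across the 9 libraries *TOE1* and *SNZ* ran opposite to each other (Pearson r = −0.89 of log2 CPM), as did *AP2* and *TOE2* (r = −0.78), while *TOE1* and *TOE2*, and *TOE2* and *SMZ*, ran together (r = 0.77 each). These values are descriptions over 9 libraries of 3 groups, so they mostly follow the group means. Among 8730 other genes with a symbol and at least 1 CPM, the closest to *TOE1* were *STIPL1* (r = 0.992) and *HAT22*, a homeodomain-leucine zipper gene (r = 0.992). The closest to *SNZ* were *PSRP6*, a plastid ribosomal protein gene, and *BZIP27*, which encodes a partner of FT related to FD (r = 0.990 each). As many as 1090 genes had an r above 0.9 with *TOE1* and 1391 with *SNZ*, so neither pattern was rare. For the other members 8 to 14 genes did. The closest were *CYP705A27* (r = 0.985) and *TI1* (0.940) for *AP2*, *UBC17* (0.951) and *WRKY41* (0.934) for *TOE2*, *BRS1* (0.962) and *RMA2* (0.942) for *TOE3*, and *SAMTL* (0.976) and *NP2* (0.938) for *SMZ*. *WRKY41* shares 41.7% of its exonic bases with other loci and *STIPL1* 13.3%.

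Genes on either side of the family were examined as lists, beginning with those that act before it. This list holds SPL factors that switch on *MIR172* genes, other regulators of miR172, and factors that make, export or load microRNAs. Of its 13 genes, 5 rose and 3 fell in *thp1-5* (median 0.16) and 4 rose and 4 fell in *sac3bc* (median 0.01), against 63.8% and 68.0% of all genes called. With total counts 10 were called higher and 1 lower in *thp1-5*, and 9 higher and 2 lower in *sac3bc*. *AGO1*, which encodes the protein that carries microRNAs to their targets, stood at 173 CPM in *thp1-5* and 163 in *sac3bc*, against 236 in Col, log2 fold changes of −0.44 ± 0.03 and −0.53 ± 0.03. *DCL1*, which encodes the enzyme that cuts microRNAs from their precursors, changed by −0.39 ± 0.05 in *thp1-5* and −0.52 ± 0.05 in *sac3bc*, with 13.5% of its exonic bases shared with other loci. *GI*, a clock-linked gene that promotes miR172, changed by −0.19 ± 0.03 and −0.24 ± 0.03 in the same order. *PWR* rose by 0.40 ± 0.04 in *thp1-5* and 0.26 ± 0.04 in *sac3bc*, and *HST*, which encodes an exportin-like protein that affects microRNA levels, by 0.28 ± 0.07 and 0.45 ± 0.07. *SPL9*, an activator of *MIR172* genes, stood at 21.9 CPM in *thp1-5* and 18.2 CPM in *sac3bc*, against 18.1 CPM in Col. It was called higher in *thp1-5* against Col (adjusted p = 0.00266, edgeR) and against *sac3bc* (adjusted p = 0.00538, edgeR), and lies outside the rule for named genes. The other SPL genes of the list, *SPL10* (0.16) and *SPL15* (0.35), were not called in *thp1-5* against Col (adjusted p = 0.0697 and 0.143, edgeR). Against *sac3bc* they were not called either (adjusted p = 0.116 and 0.25, edgeR).

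AP2-like proteins repress through TOPLESS-type corepressors. Of 6 corepressor genes, 5 fell and 0 rose in each mutant (median −0.34 in *thp1-5* and −0.40 in *sac3bc*), where 31.8% and 33.0% of all genes were called lower. With total counts 3 were called lower and 1 higher in each. *TPL* stood at 96.1 CPM in *thp1-5* and 94.96 in *sac3bc*, against 129 in Col, at −0.42 ± 0.04 and −0.43 ± 0.04. *TPR2* (−0.51 ± 0.05 and −0.49 ± 0.05), *TPR1* (−0.42 ± 0.05 and −0.47 ± 0.05) and *TPR4* (−0.25 ± 0.04 and −0.32 ± 0.04) stood lower too, in *thp1-5* and *sac3bc*. The changes of *GI* and *TPR4* were smaller than the shift of 0.30 and 0.37 that total counts gave the median gene in *thp1-5* and *sac3bc*. *HDA19*, a histone deacetylase gene that works with TPL, stood at 0.00 ± 0.04 and 0.03 ± 0.04, without a call (adjusted p = 0.986 and 0.502, edgeR).

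The next list holds flowering promoters that act with or after these repressors. Of its 11 genes, 8 passed the filter, and all 8 of these were called lower in *thp1-5* (median −0.85) and in *sac3bc* (median −1.19), beside 31.8% and 33.0% of all genes. With total counts 6 and 7 were called lower and 0 higher. *TSF*, *AP1* and *LFY* had too few counts for a test: *AP1*, which marks floral meristems, had a summed count of 2 in *thp1-5* and 1 in *sac3bc*, against 21 in Col, and *LFY* had 6 and 8, against 17. *TSF*, a close relative of *FT*, went the other way, with 17 in *thp1-5* and 9 in *sac3bc*, against 1 in Col. *SOC1*, which integrates flowering signals, stood at 54.6 CPM in *thp1-5* and 49.6 in *sac3bc*, against 172 in Col, at −1.65 ± 0.04 and −1.79 ± 0.04. *FUL*, a MADS-box gene of the floral transition, changed by −2.48 ± 0.21 and −2.19 ± 0.19. *FT*, the mobile flowering signal, stood at 3.68 CPM in *thp1-5* and 4.08 in *sac3bc*, against 6.52 in Col, at −0.85 ± 0.17 and −0.69 ± 0.16, and *AGL24* at −0.62 ± 0.13 in *thp1-5* and −0.92 ± 0.13 in *sac3bc*. *SPL3* changed by −1.51 ± 0.12 and −2.00 ± 0.12, but 97.4% of its exonic bases are shared with AT2G33815, so its reads are uncertain.

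Among 5 other floral repressors, 2 rose and 3 fell in each mutant, also with total counts, while 63.8% of all genes were called in *thp1-5* and 68.0% in *sac3bc*. The 2 that rose were *TEM1* and *TEM2*, which encode repressors of *FT* with an AP2-type domain of another family. *TEM2* stood at 80.7 CPM in *thp1-5* and 91.6 in *sac3bc*, against 22.4 in Col, at 1.84 ± 0.05 and 2.03 ± 0.05, and *TEM1* changed by 1.72 ± 0.07 and 2.06 ± 0.07. The repressors *MAF1* (−0.81 ± 0.07 and −0.94 ± 0.06) and *TFL1* (−3.14 ± 0.34 and −3.36 ± 0.33) fell in both, and *TFL1* was at 0.367 CPM in *thp1-5* and 0.321 in *sac3bc*, against 3.35 CPM in Col. The third that fell, *FLC* (−1.94 ± 0.31 and −3.54 ± 0.37), lies outside the rule for named genes. It shares 68.1% of its exonic bases with AT5G01675, so its reads are uncertain. Changes of the *TEM* genes were thus much larger than those of any member.

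The last list holds relatives with the same type of AP2 domain that are outside miR172 control. Of 12 such genes 11 were tested (*AIL1* had 0 counts in every library). In *thp1-5* 4 rose and 2 fell (median 0.30), and in *sac3bc* 3 rose and 2 fell (median 0.35), shares no higher than the 63.8% and 68.0% called among all genes, while with total counts 5 were called higher and 0 lower in *thp1-5* and 7 higher and 1 lower in *sac3bc*. *ANT*, a growth gene of young organs, rose by 0.36 ± 0.08 in *thp1-5* and stood at 0.03 ± 0.08 in *sac3bc* (adjusted p = 0.759, edgeR). *AIL6* rose by 0.51 ± 0.13 in *thp1-5* and 0.63 ± 0.13 in *sac3bc*, and *WRI1*, a regulator of fatty acid synthesis, by 0.47 ± 0.13 and 0.71 ± 0.12. *WRI4*, a regulator of cuticular wax genes, changed by −0.38 ± 0.11 in *thp1-5* (adjusted p = 0.00132, edgeR) and −0.95 ± 0.11 in *sac3bc*, and AT2G41710 by −0.28 ± 0.07 in *thp1-5* and −0.39 ± 0.07 in *sac3bc*. *AIL6*, *WRI4* and AT2G41710 share 14.7%, 16.9% and 12.3% of their exonic bases with other loci. Named genes of the lists in these paragraphs had an adjusted p of 0.000832 or lower in edgeR wherever a rise or fall is stated, unless a p is printed. The lists were not tested as sets.

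**Figure D5:**
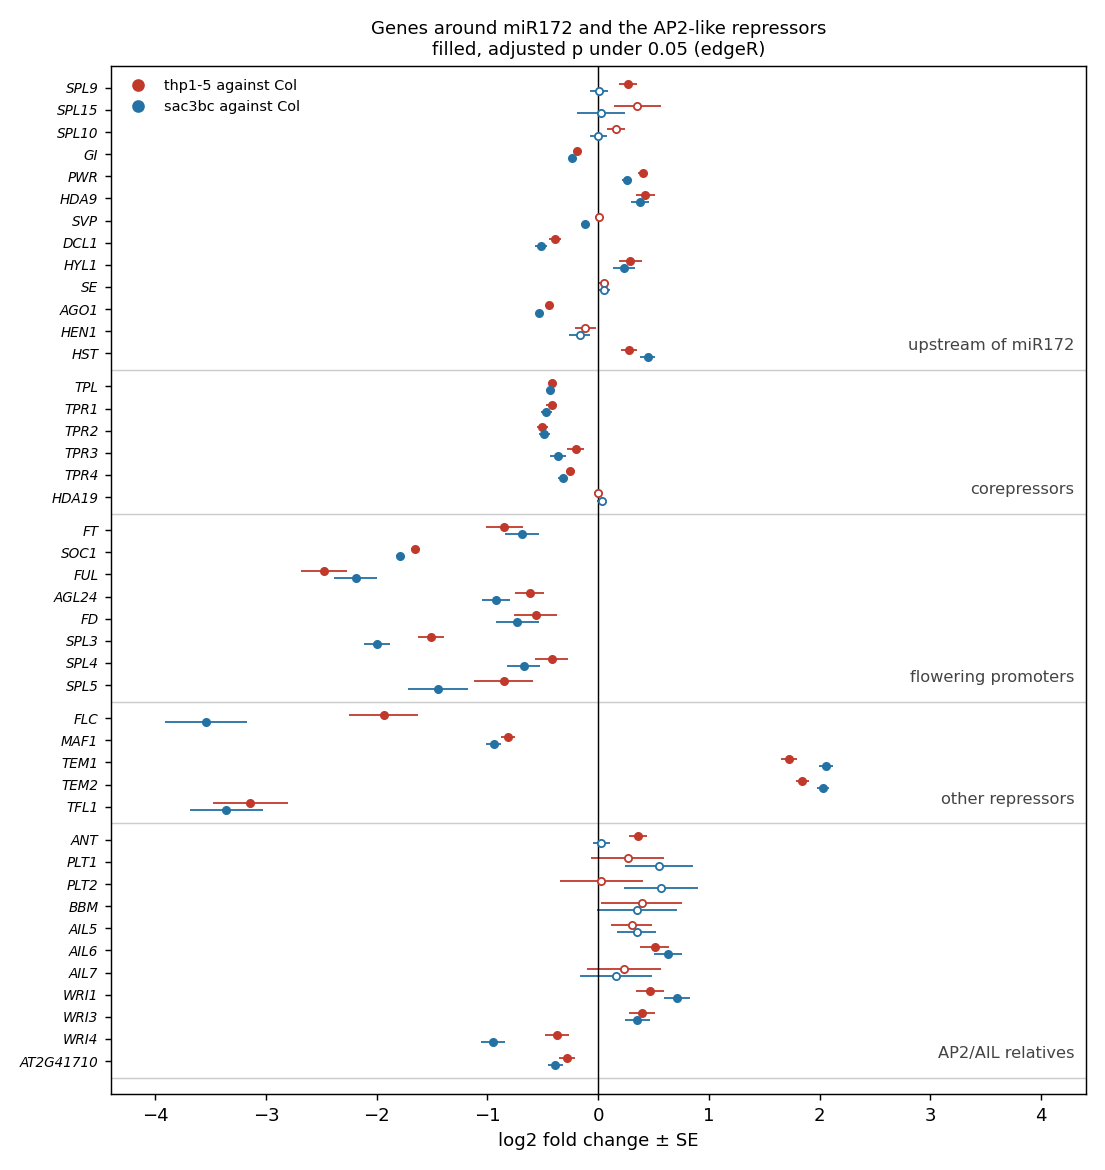
Log2 fold change ± SE (x axis) of the tested genes of 5 lists (rows) for *thp1-5* against Col (red) and *sac3bc* against Col (blue); filled points had an adjusted p under 0.05 (edgeR). All 8 tested flowering promoters lie left of 0, *TEM1* and *TEM2* lie near 2, and 5 of 6 corepressor genes lie between −0.51 and −0.20.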

How the data were processed

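Deposited read counts per gene (1 table per library, with a gene length) were used as the authors made them. STAR and DESeq2 appear in the submitters' processing notes, with no version. No label or header states the build, annotation or counting program, but the deposited length of each of the 6 genes equals its exon union in the RefSeq annotation of TAIR10.1, which gave symbols, sites and coordinates (37065 of 37361 loci matched).

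The 9 libraries entered 1 edgeR model (version 4.0.16, under R 4.3.3), scaled by TMM and filtered with filterByExpr (minimum count 10). Its quasi-likelihood F-test was robust, two-sided and used Benjamini-Hochberg adjustment over 22400 genes and calls at 0.05. The SE is the absolute log2 fold change over the root of F, and intervals are 1.96 SE either way. DESeq2 1.42.0 was an alternative. Scripts were tested on simulated data with 200 changed genes. Sites were found with Python 3.11.15, identities with Biopython 1.88.

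Members and lists were chosen with earlier results of these data known. From each list, up to 4 called genes with the smallest adjusted p were named per mutant, and per member the 2 genes with the highest correlation of log2 CPM (prior count 2).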

Additional observations from a re-analysis of the deposited data

Results flagged for a closer look

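For 4 members the change against Col differed between the mutants, by the test of *thp1-5* against *sac3bc* itself (edgeR, 3 libraries each), in which 23.0% of all genes were called. The difference of the log2 fold changes, *thp1-5* minus *sac3bc*, was −0.25 for *AP2*, 0.17 for *TOE2*, 0.33 for *TOE3* and 0.27 for *SNZ*. Each of these calls was lost in 2 or 3 of the 9 fits that left out 1 library, and DESeq2 kept only that of *SNZ*.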

How the results depend on the processing

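Settings other than the scaling left the directions against Col of the 8 called values unchanged. With total counts *AP2* in *thp1-5* turned to 0.037 (adjusted p = 0.724), *TOE1* in *thp1-5* against *sac3bc* to −0.046, and 6 members instead of 2 were called in *sac3bc*; genes called higher made up 77.6% of calls in *thp1-5*, 78.9% in *sac3bc* and 32.3% between the mutants. Ratios of mean TPM to Col, on a scale without TMM, were 1.07 for *AP2*, 1.45 for *TOE1*, 1.55 for *TOE2*, 1.62 for *TOE3*, 1.83 for *SMZ* and 0.853 for *SNZ* in *thp1-5*, and 1.31, 1.49, 1.42, 1.32, 1.49 and 0.730 in *sac3bc*. Values without a call near 0 changed sign: *AP2* in *sac3bc* with DESeq2 (−0.017) and with only the 6 libraries compared (−0.0058), and *TOE3* in *sac3bc* with DESeq2 (−0.0055). Leaving out 1 library gave −0.039 to 0.061 for *AP2* and −0.068 to 0.066 for *TOE3* in *sac3bc*, and −0.0061 to 0.011 for *TOE1* between the mutants. Members called then numbered 5 to 6 in *thp1-5*, 2 to 3 in *sac3bc* and 2 to 4 between the mutants, and 1 between the mutants with DESeq2. Genes called between the mutants numbered 3463 with DESeq2, against 5150. Same-numbered libraries did not deviate together (r = −0.0093 to 0.038), and the replicate block changed no call of a member, with 14258, 15202 and 5093 genes called in *thp1-5*, *sac3bc* and between the mutants. Depth limits *SMZ* most, at 46 to 114 counts per library. Causes were not tested.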
